A study of Mus musculus with 6 samples.

Results

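The genes of sterol and fatty acid synthesis were followed here in T cells from mice with 1 or with both copies of Dicer, the nuclease that matures microRNAs, flanked for deletion. No microRNA was measured. The group was chosen by function from a list of 35 symbols, covering the enzymes that build cholesterol, the proteins that sense it, the enzymes of fatty acid synthesis, desaturation and elongation, and a pair of sterol exporters. A probe set carrying that gene's symbol alone was found for 34 of the 35 genes, out of 18193 genes with such a probe set on the array, and Acat2, the cytosolic thiolase that opens the mevalonate pathway, was not measured here. Of the 34 genes, 33 were bright enough to be tested, each on all 6 arrays. The remaining gene, the desaturase Fads2, read 14.6 to 15.3 on every array, under the brightness filter (a log2 value above 4 on at least 3 arrays).

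RNA came from CD4+YFP+ T cells sorted from mouse lymph nodes. Every mouse carried FoxP3-GFP-hCre, a Cre recombinase driven by Foxp3, the lineage factor of regulatory T cells, together with the reporter ROSA26R-YFP. YFP therefore marks cells with a history of Cre activity, whether or not they still express Foxp3. Het mice were Dicerwt/lox and keep 1 intact copy of Dicer, while KO mice were Dicerlox/lox, and 3 arrays were run per genotype, lettered A, B and C. The labels give no age, no number of mice per array and no pooling, so the spread behind the p-values is that between samples and could be technical. Values are GCRMA intensities on a linear scale, and differences were taken on log2 values as KO minus Het, with the standard error (SE) from limma, a linear model fitted across all probe sets. In sorted bulk RNA, a smaller share of cells of some type and less RNA per cell cannot be told apart.

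Cholesterol is made from acetyl-CoA through mevalonate, isoprenoid units, squalene and lanosterol, and fatty acids from acetyl-CoA through malonyl-CoA. The transcription factors SREBP-1 and SREBP-2, encoded by Srebf1 and Srebf2, control both routes. When membrane sterol is low, Scap carries them from the endoplasmic reticulum to the Golgi to be cleaved, and when sterol is high the Insig proteins hold Scap back. Cholesterol export by Abca1 and Abcg1 runs the other way and is induced by sterol-activated LXR receptors. T cells raise SREBP-driven lipid synthesis when they are activated and divide.

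A microRNA lies inside this pathway. The hairpin of miR-33 is encoded within Srebf2 (hairpin chr15:82198122-82198190, host gene chr15:82147269-82205379, both on the + strand of GRCm38.p6), and Abca1 and Abcg1 are reported targets of miR-33 in mice. Its mature sequence from RefSeq is shown because its host and its reported targets are all measured below, with the seed, bases 2 to 8, in capitals.
mmu-miR-33-5p: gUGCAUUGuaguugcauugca

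The promoters of 4 genes that the results turn on are shown next, to make visible a letter pattern shared by the group. SREBPs bind promoters together with NF-Y, which recognises the CCAAT box. Promoter windows from RefSeq (GRCm38.p6), each running from 250 bases before the gene start to 50 bases after it, matched 28 of the 35 genes. Capitals mark CCAAT on either strand (ATTGG when read on the strand shown) and, in Hmgcs1, 1 match to the sterol regulatory element pattern TCACNCCAC.
Hmgcs1 promoter (chr13:119690101-119690400, + strand): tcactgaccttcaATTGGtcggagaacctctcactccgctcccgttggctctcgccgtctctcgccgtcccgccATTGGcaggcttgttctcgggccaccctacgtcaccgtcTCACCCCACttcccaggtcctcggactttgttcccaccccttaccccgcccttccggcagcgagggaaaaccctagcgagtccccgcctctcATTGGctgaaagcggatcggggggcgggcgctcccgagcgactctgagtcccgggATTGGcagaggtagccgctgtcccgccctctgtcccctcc
Idi1 promoter (chr13:8885356-8885655, + strand): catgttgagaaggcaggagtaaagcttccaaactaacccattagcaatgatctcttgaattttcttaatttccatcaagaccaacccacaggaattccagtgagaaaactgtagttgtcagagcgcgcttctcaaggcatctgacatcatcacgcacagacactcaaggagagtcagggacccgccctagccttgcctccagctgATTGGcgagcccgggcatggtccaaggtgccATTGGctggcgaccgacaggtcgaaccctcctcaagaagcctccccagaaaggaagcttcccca
Cyp51 promoter (chr5:4104648-4104947, - strand): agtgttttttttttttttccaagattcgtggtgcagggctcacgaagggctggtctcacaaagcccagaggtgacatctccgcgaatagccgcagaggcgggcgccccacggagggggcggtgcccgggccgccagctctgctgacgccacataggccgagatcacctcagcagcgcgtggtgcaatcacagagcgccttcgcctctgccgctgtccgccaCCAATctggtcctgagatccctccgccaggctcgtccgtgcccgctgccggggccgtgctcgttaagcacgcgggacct
Tm7sf2 promoter (chr19:6067801-6068100, - strand): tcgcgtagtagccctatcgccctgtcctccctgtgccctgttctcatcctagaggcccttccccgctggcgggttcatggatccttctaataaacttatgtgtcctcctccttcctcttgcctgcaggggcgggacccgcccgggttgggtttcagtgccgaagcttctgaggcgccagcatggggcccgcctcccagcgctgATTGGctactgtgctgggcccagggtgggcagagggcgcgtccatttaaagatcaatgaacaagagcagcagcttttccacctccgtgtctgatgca

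The box begins 47 bases before the start of Tm7sf2, 29 before that of Cyp51, and 45 and 14 before that of Idi1, and the sterol regulatory element of Hmgcs1 begins 137 bases before its start. A CCAAT box on either strand was present for 22 of the 28 genes (78.6%), counting a gene with several windows if any window held it, against 42.4% of the 10713 tested genes with a window, 37.4% of all 32851 windows and 62.2% of the 37 windows of these 28 genes. The GC box GGGCGG, bound by Sp1, was present for 23 of the 28 (82.1%, against 64.4% of tested genes and 35.7% of all windows), and the E-box CACGTG for 7 (25%, against 11.2% and 7.15%). The strict pattern TCACNCCAC was found for Hmgcs1 alone (3.57%, against 1.47% of tested genes and 1.24% of windows). All motifs were searched on both strands, and none of them contains another. Among the windows without a CCAAT box were those of Abca1, Acaca, Scap and Elovl6. A match describes letters and is not a measured binding site.

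In short, no gene of the group passed the test between KO and Het, and the arrays differed instead within the KO genotype. Of the 33 genes tested, 0 passed an adjusted p of 0.05 (limma with Benjamini-Hochberg adjustment over 29507 probe sets), against 2.33% of all 13280 genes tested (1.37% higher and 0.956% lower in KO). Nor did any of the group's 69 tested probe sets, against 1.78% of all probe sets. The 2.33% comes to under 1 gene in 33. It is drawn from the 525 probe sets called (the 1.78%), an unstable number that fell to 0 to 176 with any 1 array left out. At an unadjusted p under 0.05 there were 2 higher genes (Elovl5 and Abcg1) and 2 lower genes (Tm7sf2 and Dhcr7), 12.1% of the 33, against 22.3% of all genes (10.7% higher and 11.6% lower). The 3 KO values lay wholly on 1 side of the 3 Het values for 6 of the 33 genes (18.2%), against 29.9% of all genes. Those 6 were Abca1, Abcg1 and Elovl5 above Het, where 13.2% of all genes lay, and Tm7sf2, Dhcr7 and Msmo1 below Het, where 16.8% lay. The median log2 difference was -0.10 over the 33 genes and -0.03 over all genes, and 21 of the 33 (63.6%) had a lower mean in KO, against 56.6% of all genes. Without KO A the group's median was 0.11. By comparison, all 11 tested genes of a proliferation list had a higher mean in KO (median 1.63). Of them 0 passed the test, and 6 (54.5%, against 22.3% of all genes) had an unadjusted p under 0.05 (limma). Their median log2 value relative to the Het mean was -1.56 on Het A, 0.90 on Het B and 0.42 on Het C. On the KO arrays it was 1.41 to 2.02. Het A thus lay far below the other Het arrays for these genes.

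**Figure D1:**
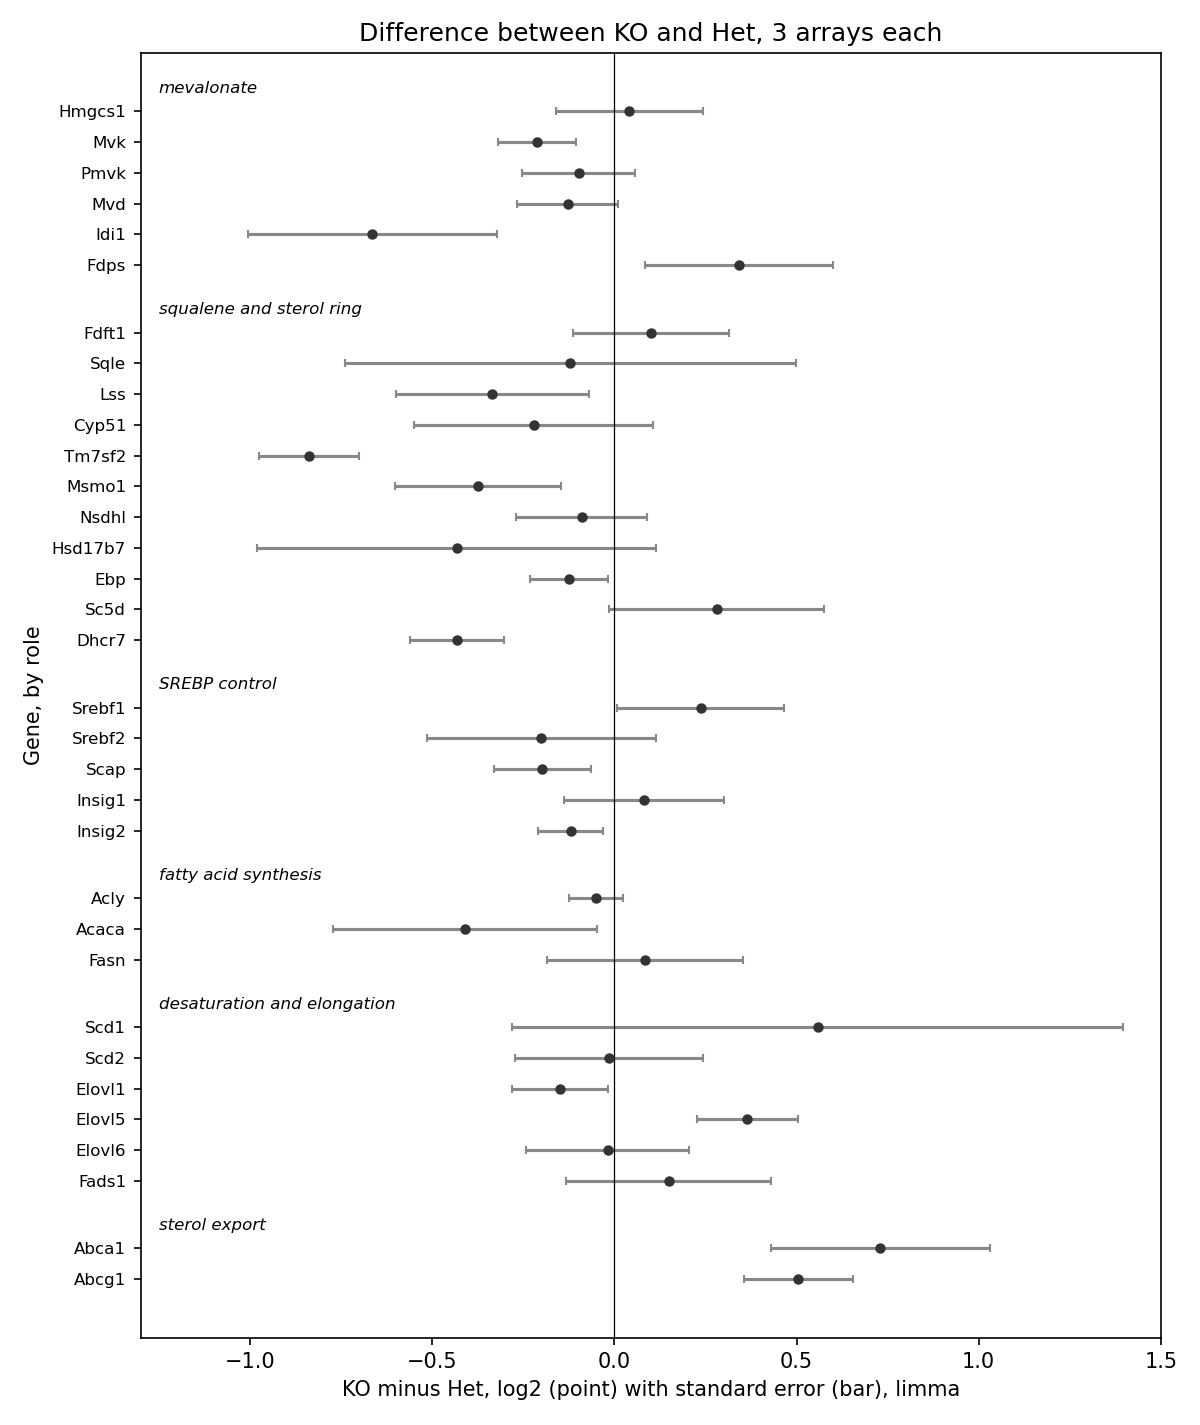
Difference between KO and Het for the 33 tested genes, in rows by role. Points are log2 differences (KO minus Het, 3 arrays each) and bars are the SE from limma; Tm7sf2 at -0.84 and Abca1 at 0.73 lie at the ends, and the wide bars of Sqle, Hsd17b7 and Scd1 come with large differences between arrays of a genotype.

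Dicer1, the targeted gene, has a pair of probe sets, and whether either lies in the deleted part is not known here. The first gave 1203, 1077 and 1059 in Het against 1029, 1053 and 1187 in KO (limma, adjusted p = 0.891), and the second 1218, 1120 and 1345 against 897, 976 and 709 (log2 -0.52; limma, adjusted p = 0.145), the latter without overlap. Beside these values stand measures of the arrays themselves. Median intensities were 58.1 to 61.5, so overall brightness was alike. The ratio of the 3' to the 5' control probe set of beta-actin, a measure of RNA integrity and labelling, was 1.5 to 1.93 on the Het arrays, 1.41 on KO A, 1.5 on KO C and 2.15 on KO B. Summed over a list of 5 measured B cell markers, intensities were 1049 to 2464 in Het and 1891 to 5025 in KO, with Het B and KO B the highest of their genotypes. Cd22 was the largest of them on each KO array (1063, 2980 and 1312 on KO A, B and C) and alone did not overlap between genotypes. Cd79a, Cd79b and Ms4a1 had higher means in KO with overlap, and Pax5 lay under the filter on every array. For 6 myeloid markers the sums were 372 to 647 in Het and 486 to 2380 in KO, again highest on KO B, while the monocyte genes Cd14 and Itgam lay under the filter on every array. For 4 measured adipocyte markers the sums were 50.8 to 60.2 in Het and 76.2 to 215 in KO, carried by Fabp4, and the defining gene Adipoq read 3.73 to 5.74. The CD8 T cell sums (2 genes) were 651 to 2257 in Het and 636 to 4415 in KO, and those of 3 NK cell genes 122 to 617 and 138 to 1728, with the B array highest in each genotype. The sums of 5 alpha beta T cell markers, Foxp3 among them, were 77459 to 84594 in Het and 68727 to 74642 in KO. Every KO sum thus lay below every Het sum, but of the 5 genes only Cd3g did so by itself. Cd3e, Cd5 and Foxp3 overlapped between genotypes, and Cd4 had the higher mean in KO (5703 against 5227 in Het). Foxp3 read 9960, 8945 and 9769 on Het A, B and C against 5453, 9417 and 5420 on KO A, B and C, without passing the test (limma, adjusted p = 0.285).

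The upper mevalonate pathway supplies the isoprenoid building blocks. Hmgcs1, the synthase that condenses acetyl-CoA units into HMG-CoA, read 7636, 7167 and 7429 on Het A, B and C against 5850, 10051 and 7536 on KO A, B and C. The Het arrays lay within 1.07-fold of each other, and KO A lay below and KO B above all of them. The means were 7411 ± 235 and 7812 ± 2114 (SD, n = 3), which is 0.04 ± 0.20 (SE) in log2 (limma, adjusted p = 0.932), whose sign turned in 5 of 16 alternative analyses. Of its 5 probe sets 4 gave differences of 0.04 to 0.18, and the dimmest gave -0.59.

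Idi1, the isomerase that makes the allylic isoprenoid unit, had the largest difference of this branch. It read 1950, 2029 and 2260 in Het against 785, 2006 and 1426 in KO. KO B lay inside the Het range and the other KO arrays below it. The log2 difference was -0.66 ± 0.34 (limma, adjusted p = 0.368), and the second probe set gave -0.41 with the same order of KO arrays. Mvk, mevalonate kinase, read 186, 196 and 182 in Het against 155, 149 and 185 in KO, a log2 difference of -0.21 ± 0.11 (limma, adjusted p = 0.361). Here KO C lay within the Het range and KO A and KO B under it, unlike the order seen for Hmgcs1 and Idi1. The dimmer second Mvk probe set gave -0.0026. It read 100.6, 122.5 and 105.7 on KO A, B and C, so there KO A was the lowest and KO B the highest KO array.

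Pmvk and Mvd, which complete the conversion of mevalonate to isopentenyl diphosphate, gave log2 differences of -0.10 and -0.13. Fdps, which joins isoprenoid units into farnesyl diphosphate, read 701, 776 and 720 in Het against 620, 1203 and 1071 in KO (log2 0.34 ± 0.26; limma, adjusted p = 0.538). KO A was again the lowest of the 6 arrays, while KO B and KO C lay above Het. In this branch KO A lay below every other array for 5 of 6 genes, and the median log2 difference was -0.11.

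From squalene onward the pathway closes and trims the sterol ring. Fdft1, squalene synthase, read 1390, 1355 and 1454 in Het against 1084, 1893 and 1646 in KO, with a log2 difference of 0.10 ± 0.21 (limma, adjusted p = 0.839). Sqle, the squalene epoxidase that commits squalene to sterols, read 500, 551 and 518 in Het against 176, 898 and 703 in KO. Its Het values spanned 1.10-fold and its KO values 5.11-fold, with KO A far below and KO B and KO C above every Het array. The means, 523 ± 25.7 and 592 ± 374 (SD, n = 3), differed by a log2 of -0.12 ± 0.62 (limma, adjusted p = 0.936), and without KO A the difference was 0.61.

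Lss, lanosterol synthase, read 370, 450.5 and 417 in Het against 225, 453 and 340 in KO (log2 -0.33 ± 0.26). Cyp51, the demethylase that acts on lanosterol, read 988, 1055 and 1012 in Het against 532, 1320 and 948 in KO, with a log2 difference of -0.22 ± 0.33 (limma, adjusted p = 0.767). A second Cyp51 probe set of like brightness gave -0.74 ± 0.26 (limma, adjusted p = 0.210), so the probe sets of this gene differ in size. Hsd17b7, a ketoreductase of the demethylation complex, read 203, 204 and 187 in Het against 60.8, 264 and 196 in KO, a 4.35-fold range in KO against 1.09-fold in Het. Its dimmer tested probe sets did not show so low a KO A. The first read 90.1, 91.1 and 88.7 in Het against 85.9, 105 and 77.5 in KO. The dimmest read 61.2, 68.2 and 34.6 against 38.3, 42.8 and 44.6. On the brightest probe set of each of the 3 genes, the low value belonged to KO A and the high one to KO B.

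Tm7sf2, which encodes a sterol reductase, stood apart from that order. It read 227, 217 and 292 in Het against 130, 132 and 146 in KO. All KO values lay under all Het values, and the KO arrays agreed within 1.12-fold. The means were 245 ± 40.6 and 136 ± 8.79 (SD, n = 3), a log2 difference of -0.84 ± 0.14, or 1.79-fold lower in KO, which missed the threshold (limma, adjusted p = 0.0535). The call was made under a stricter brightness filter (adjusted p = 0.0443), with array weights (0.0422) and with probe sets of a gene averaged (0.0352), and the adjusted p ran from 0.0352 to 0.171 over 16 alternatives (limma). The difference kept its sign in all 16, between -0.92 and -0.71.

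Dhcr7, the reductase of the last step to cholesterol, read 1785, 1804 and 1911 in Het against 1138, 1525 and 1443 in KO. The groups did not overlap, and KO A was the lowest. The means, 1833 ± 67.9 and 1369 ± 204 (SD, n = 3), differed by a log2 of -0.43 ± 0.13 (limma, adjusted p = 0.161). Msmo1, the methylsterol oxidase, read 1802, 1594 and 1574 in Het against 900, 1549 and 1488 in KO, so KO B and KO C came within 1.59% and 5.46% of the lowest Het array and KO A lay 42.8% under it. Its log2 difference was -0.37 ± 0.23 (limma, adjusted p = 0.443).

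The other ring enzymes were Nsdhl (log2 -0.09), Ebp (-0.12) and Sc5d (0.28). Ebp, the sterol isomerase, read 4260 to 5335 over all 6 arrays. Sc5d, the desaturase before Dhcr7, read 979, 989 and 698 in Het against 1430, 1192 and 711 in KO, the only ring enzyme for which KO A was the highest array, and its second probe set gave -0.15. Over the 11 ring enzymes the median log2 difference was -0.22, 9 had a lower mean in KO, and KO A lay below every other array for 9.

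**Figure D2:**
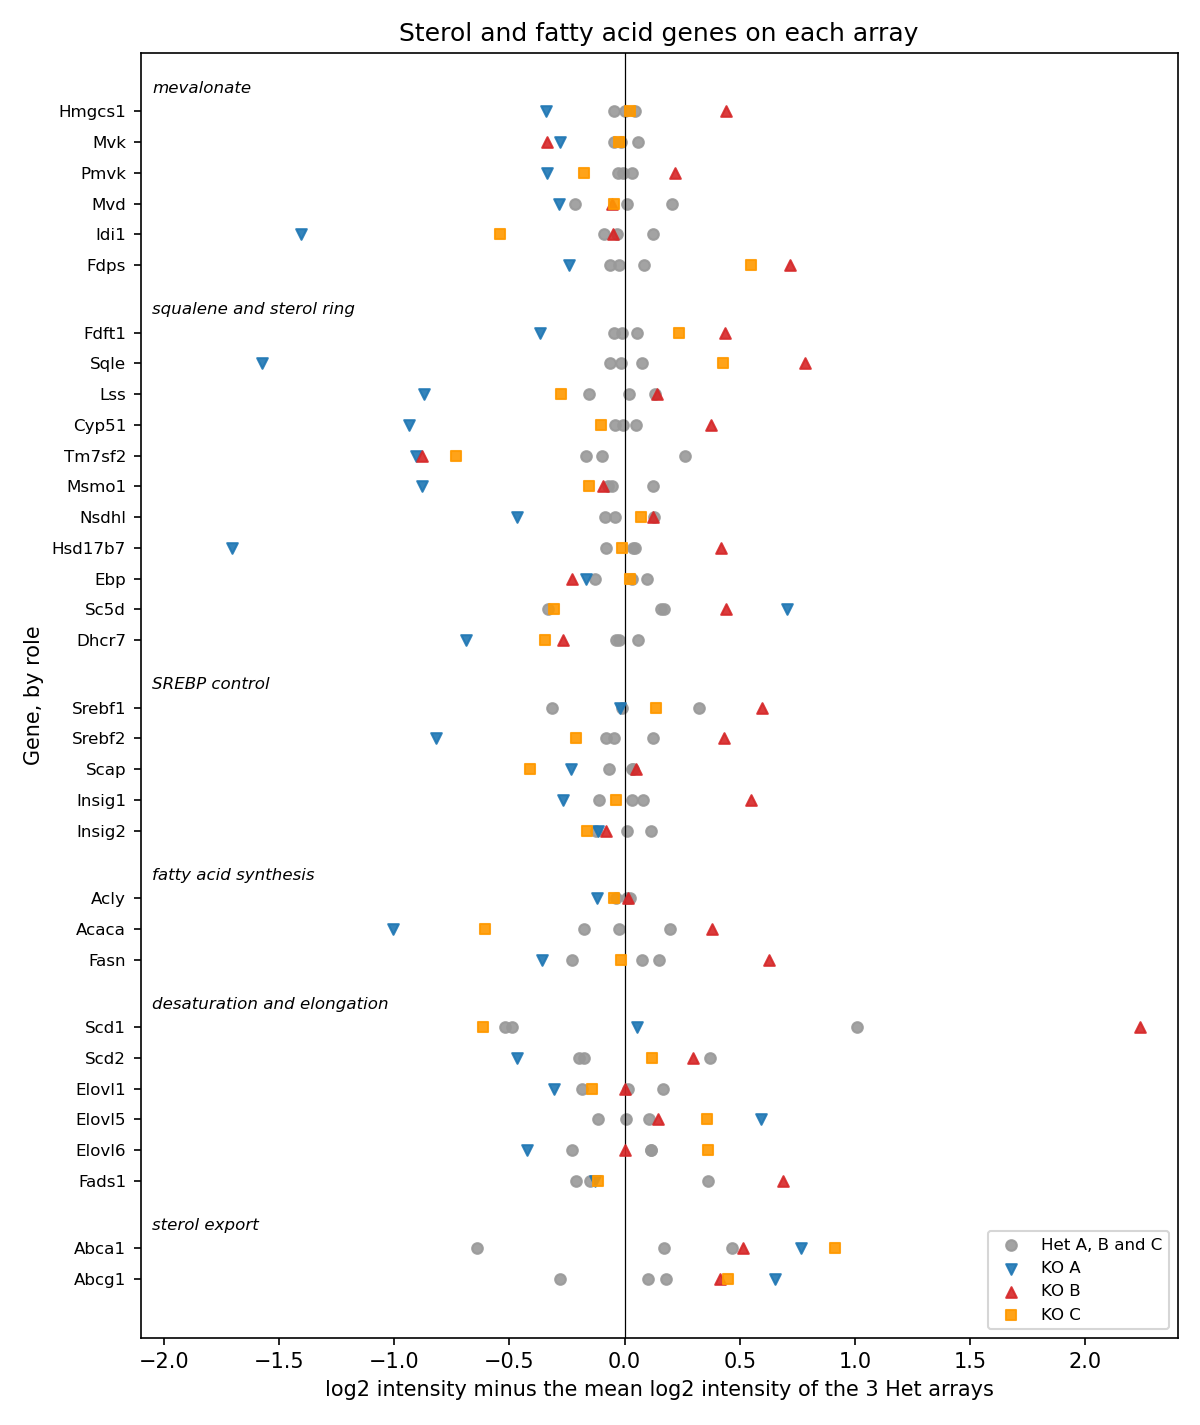
Log2 intensity of the 33 tested genes on each array minus the mean log2 of the 3 Het arrays, in rows by role. Grey circles are Het arrays and coloured symbols KO arrays; for most sterol enzymes the Het points cluster near 0 while KO A (blue) lies to the left and KO B (red) to the right, and Tm7sf2, Abca1 and Abcg1 have all KO arrays on 1 side.

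Of the 5 control genes of the pathway, 3 had KO A as the lowest and KO B as the highest KO array, against 28.2% of all genes. Srebf2, which encodes SREBP-2, read 844, 825 and 949 in Het against 493, 1174 and 752 in KO, a log2 difference of -0.20 ± 0.31 (limma, adjusted p = 0.780). KO A lay under and KO B over every Het array, on this probe set and on the second one (713, 836 and 962 in Het; 430, 1172 and 631 in KO). Srebf1, which encodes SREBP-1, read 1374, 2140 and 1696 in Het against 1686, 2582 and 1876 in KO (log2 0.24 ± 0.23; limma, adjusted p = 0.635). In both genotypes array B was the highest for Srebf1, and the groups overlapped.

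Insig1, itself an SREBP target that restrains SREBP processing, read 2021, 1767 and 1951 in Het against 1588, 2791 and 1859 in KO (log2 0.08 ± 0.22; limma, adjusted p = 0.874). KO A was again the lowest and KO B the highest of the 6 arrays. Insig2, its paralogue, read 987, 1062 and 901 in Het against 906, 927 and 876.5 in KO, with overlap (log2 -0.12 ± 0.09; limma, adjusted p = 0.535), with -0.31 and -0.32 on its other probe sets. Scap, the escort protein, read 2172, 2333 and 2334 in Het against 1940, 2355 and 1715 in KO (log2 -0.20 ± 0.13; limma, adjusted p = 0.487), and its lowest array was KO C.

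Fatty acid synthesis starts from citrate cleaved by Acly. Acly read 15253, 14762 and 15375 in Het against 13935, 15275 and 14652 in KO, with a log2 difference of -0.05 ± 0.07 (limma, adjusted p = 0.768). Its other tested probe sets gave 0.07, 0.32 and -0.25. The probe set giving 0.32 read 1162, 1310 and 1075 in Het against 1425, 1375 and 1638 in KO, with KO B the lowest KO array. Acaca, the acetyl-CoA carboxylase that makes malonyl-CoA, read 486, 540 and 629 in Het against 274, 715 and 360 in KO (log2 -0.41 ± 0.36; limma, adjusted p = 0.604). Fasn, fatty acid synthase, read 1474, 1821 and 1915 in Het against 1348, 2667 and 1706 in KO (log2 0.08 ± 0.27; limma, adjusted p = 0.892). On the brightest probe set of each of these 3 genes, KO A was the lowest of the 6 arrays, and KO B was the highest of the KO arrays.

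Desaturases and elongases shape the chains that Fasn makes. Scd1, a stearoyl-CoA desaturase, was dim and read 51.5, 148 and 52.6 in Het against 76.5, 348 and 48.2 in KO. The B arrays were the high ones in both genotypes, as they were for the B cell and myeloid markers, and the part of those cells in the Scd1 values was not tested. In log2 it was 0.56 ± 0.84 higher, short of the threshold (limma, adjusted p = 0.770), and it was -0.28 without KO B. Scd2, another stearoyl-CoA desaturase, read 6923, 10113 and 6810 in Het against 5647, 9612 and 8498 in KO, with a log2 difference of -0.02 ± 0.26 (limma, adjusted p = 0.981).

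Elovl5, an elongase of polyunsaturated fatty acids, read 17200, 15784 and 18423 in Het against 25787, 18896 and 21940 in KO. Every KO array lay above every Het array, and KO A was the highest. The means were 17136 ± 1321 and 22208 ± 3453 (SD, n = 3), 0.37 ± 0.14 apart in log2, which missed the threshold (limma, adjusted p = 0.237), and the second probe set gave 0.53 ± 0.16 (limma, adjusted p = 0.173). Elovl1, which extends very long saturated chains, read 2181, 2500 and 2784 in Het against 2004, 2479 and 2242 in KO, with overlap (log2 -0.15 ± 0.13; limma, adjusted p = 0.602). Its other probe sets gave -0.01, -0.11 and, on the dimmest, -0.29 ± 0.11 without overlap (limma, adjusted p = 0.234). Elovl6, which extends palmitate, gave -0.02, and Fads1, a front-end desaturase of polyunsaturated fatty acids, gave 0.15.

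The exporters had their highest arrays in KO. Abca1, which loads cholesterol onto lipid-poor apolipoprotein, read 1706, 2091 and 971 in Het against 2572, 2159 and 2846 in KO. The groups did not overlap, but KO B exceeded Het B by little, and Het C was far below the other Het arrays. The means were 1589 ± 569 and 2526 ± 346 (SD, n = 3), a log2 difference of 0.73 ± 0.30 (limma, adjusted p = 0.272), and the dim second probe set gave 0.27. Without Het C the difference was 0.41.

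Abcg1, which passes cholesterol to formed lipoprotein particles, read 2635, 2784 and 2023 in Het against 3862, 3279 and 3352 in KO. All KO values again lay above all Het values. The means were 2481 ± 403 and 3498 ± 318 (SD, n = 3), a log2 difference of 0.51 ± 0.15 (limma, adjusted p = 0.158), and the second probe set gave 0.52 ± 0.14 (limma, adjusted p = 0.128). Macrophages carry both exporters. The myeloid marker sum was 486 on KO A, 2380 on KO B and 987 on KO C, against 372 to 647 in Het, while Abcg1 was highest on KO A and Abca1 on KO C. On KO B and KO C the sum was carried by Lyz2 (1408 and 441) and Fcgr3 (725 and 316). Over all 6 arrays Csf1r read 152 to 174 and Adgre1 45.8 to 64.3. The part of myeloid cells in the exporter values was not tested.

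**Figure D3:**
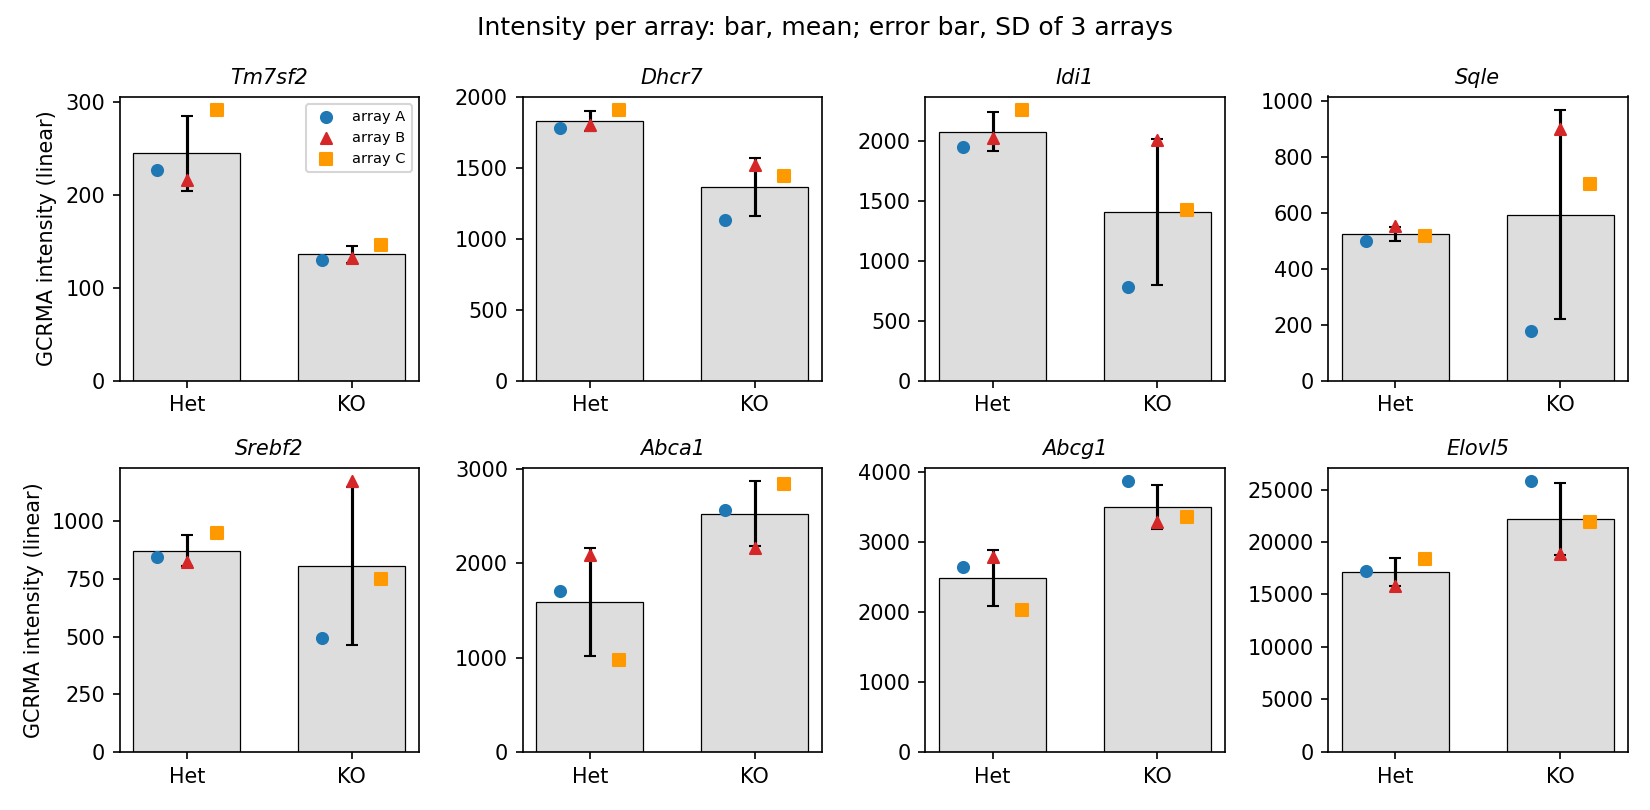
GCRMA intensity of 8 genes on each array (linear axis from 0), with bars for the mean and error bars for the SD of 3 arrays. Tm7sf2 and Dhcr7 lie lower on all KO arrays and Abca1, Abcg1 and Elovl5 higher, while the KO values of Idi1, Sqle and Srebf2 spread from KO A at the bottom to KO B at the top.

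The spread between arrays was the feature that ran through most of the group. The SD of log2 values was larger in KO than in Het for 27 of the 33 genes (81.8%), against 50.4% of all genes. Its median over the 33 genes was 0.11 in Het and 0.39 in KO, where all genes had 0.14 and 0.15. The KO SD exceeded the Het SD by more than 0.25 for 15 of the 33 (45.5%), against 8.01% of all genes. The 17 sterol synthesis enzymes had medians of 0.08 in Het and 0.42 in KO, and 15 of them were more spread in KO. Both exporters, Tm7sf2, Insig2, Mvd and Elovl1 were the 6 genes with no larger spread in KO.

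**Figure D4:**
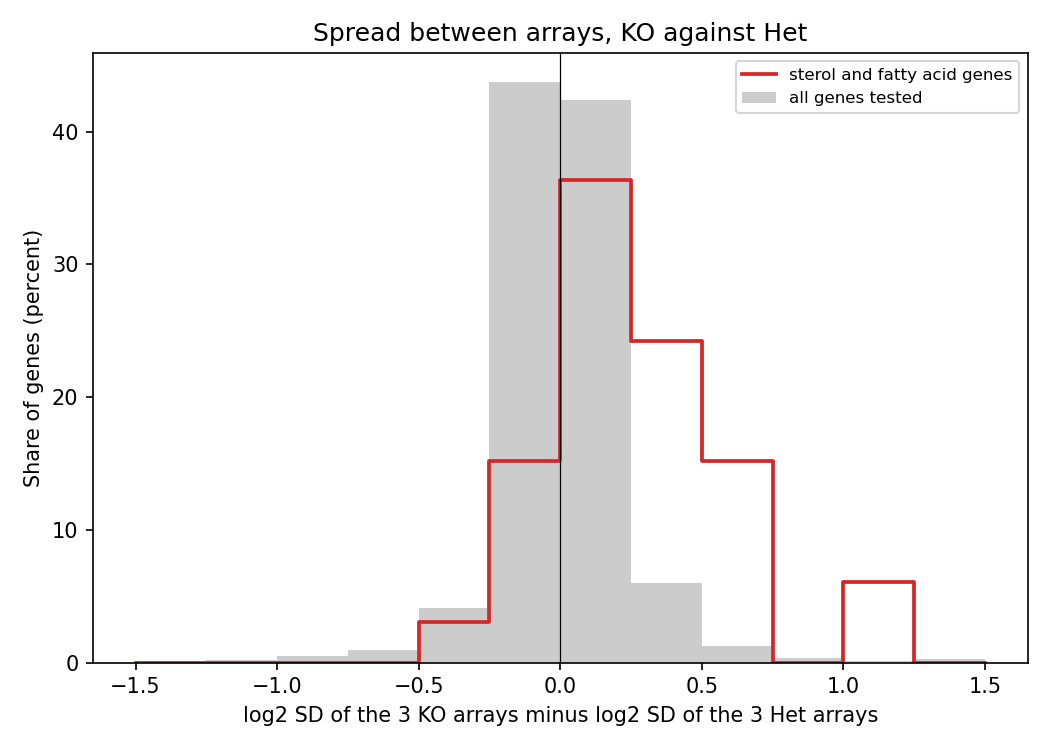
Distribution of the log2 SD of the 3 KO arrays minus that of the 3 Het arrays, as the share of genes in steps of 0.25. Grey bars are the 13280 genes tested and the red line the 33 sterol and fatty acid genes; 45.5% of the latter lie above 0.25, against 8.01% of all genes.

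The arrays fell in a common order within KO. KO A lay below all 5 other arrays for 22 of the 33 genes (66.7%), against 21.3% of all genes, and KO B above all others for 16 (48.5%, against 24.5%). Both KO A as the lowest and KO B as the highest of the KO arrays held for 21 (63.6%, against 28.2%). Relative to the Het mean, the median log2 value of the 33 genes was -0.34 on KO A, 0.30 on KO B and -0.04 on KO C, and over the ring enzymes -0.87, 0.14 and -0.10. On the Het arrays it was -0.04 to 0.03. The largest deviations on KO A were those of Hsd17b7 (-1.70, a size not seen on its dimmer probe sets), Sqle (-1.57) and Idi1 (-1.40).

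Other measures differed between the same KO arrays, and their part was not tested. The beta-actin ratio of control probe sets ran from KO A through KO C to KO B, as did the group's median. KO B also had the highest B cell, myeloid, CD8 T cell and NK cell sums of all 6 arrays. It was the highest KO array for 10 of 11 proliferation genes (90.9%, against 46.3% of all genes). Foxp3 on KO B (9417) lay within the Het range, with KO A (5453) and KO C (5420) below it. On the Het arrays that ratio ran from 1.5 to 1.93 while the group's median lay between -0.04 and 0.03. Leaving out both B arrays, 24 of 33 genes (72.7%) were more spread in KO, against 47.6% of all genes, and leaving out both A arrays 23 (69.7%, against 49.6%). Of the 22 tested genes with a CCAAT box in the promoter window, 17 had KO A as the lowest KO array and 18 were more spread in KO. Of the 4 tested genes with a window but no box 2 and 3 did so, too few genes to compare. In the group as a whole these counts were 24 of 33 (72.7%) and 27 of 33 (81.8%), against 41.5% and 50.4% of all genes.

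A wider list of 46 genes around the pathway was read in the same fit, of which 42 were tested. Of these, 0 passed in limma, while without adjustment 5 of the higher and 3 of the lower genes had p under 0.05, together 19% against 22.3% of all genes. The median log2 difference was 0.01, and KO A lay below every other array for 10 (23.8%), near the 21.3% of all genes. KO B lay above every other array for 19 (45.2%), against 24.5% of all genes and 48.5% of the group. Both KO A as the lowest and KO B as the highest KO array held for 17 (40.5%, against 28.2% of all genes). The share with KO A below every other array differed by branch. It was 60% (3 of 5) for acetyl-CoA and NADPH supply and 42.9% (3 of 7) for additional genes of fatty acid synthesis and elongation. In the other branches of the list it was 0% to 22.2%. For acetyl-CoA and NADPH supply the median log2 SD was 0.05 in Het and 0.45 in KO. The 3 with the smallest p were Lipa, Fabp5 and Hacd3. Lipa, the lysosomal acid lipase that frees cholesterol from its esters, read 2350, 2195 and 2517 in Het against 1769, 1686 and 1919 in KO (log2 -0.39 ± 0.09; limma, adjusted p = 0.104). Fabp5, a fatty acid carrier, read 5561, 10518 and 9378 in Het against 15729, 18140 and 16072 in KO (log2 1.02 ± 0.25; limma, adjusted p = 0.112). Hacd3, a dehydratase of fatty acid elongation, read 6319, 9550 and 7621 in Het against 5420, 5108 and 5333 in KO (log2 -0.55 ± 0.16; limma, adjusted p = 0.155). The groups did not overlap for any of these 3 genes, which were picked by their p. Over the list they did not overlap for 10 of 42 genes (23.8%), against 29.9% of all genes.

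By branch, 5 of 5 tested genes of acetyl-CoA and NADPH supply and 7 of 7 of the additional fatty acid synthesis and elongation genes had a lower mean in KO (medians -0.12 and -0.19), against 56.6% of all genes. Of 8 tested genes of sterol uptake, transport and storage, 5 had a higher mean (median 0.22), as had 7 of 9 genes of fatty acid activation, use and glycerolipids (median 0.24). None of these branches had a gene past the test, with 2 lower in elongation, 1 lower and 1 higher in sterol transport and 3 higher in fatty acid use at an unadjusted p under 0.05 (limma). These are 28.6%, 25% and 33.3% of the genes tested in each, against 22.3% of all genes. Npc1, which moves cholesterol out of lysosomes, was the higher gene in sterol transport, with a log2 difference of 0.53 ± 0.19 (limma, adjusted p = 0.219), and was named after its value was seen.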

How the data were processed

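RNA of 6 samples was measured on 6 arrays, 3 Het and 3 KO, grouped by the sample titles. Total RNA was extracted with TRIzol, amplified and biotin-labelled, per the labels' protocols. The authors deposited GCRMA-normalized intensity values, per the labels; software and version are not given in the sources used here. GCRMA subtracts a background modelled from probe sequence, which pushes dim probe sets to a floor. The values run from 1.23 to 170023, so they were taken as linear and log2 was computed.

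Of 45101 probe sets, 64 control probe sets and 1 lacking values were dropped, and 29507 with log2 above 4 on at least 3 arrays were tested. Names came from the platform annotation, in which 34958 probe sets had 1 symbol, 932 several and 9211 none listed. The brightest probe set stood for a gene (highest mean over 6 arrays). KO was compared with Het in limma 3.58.1 (R 4.3.3), two-sided, without covariates, with Benjamini-Hochberg adjustment over all probe sets tested; the steps were tested on simulated data. The number of arrays limits the precision. The genes, lists and tests were chosen with earlier results of these data known. Values per array are given for genes with unadjusted p under 0.05, for the 2 genes per role with the smallest p and for Srebf1, Srebf2, Insig1, Scd1, Scd2, Fasn, Sqle, Abca1 and Abcg1, and others were added after their values were seen. Alternatives were other filters, normalizations, an offset, trend and robust estimation, array weights, the mean of probe sets, a block on the array letter, and leaving out arrays. The alternatives for the spread between arrays were chosen after seeing the data. Promoter and microRNA sequences are from RefSeq (GRCm38.p6).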

Additional observations from a re-analysis of the deposited data

How the results depend on the processing

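The count of 0 genes of the group past the threshold (4 at an unadjusted p under 0.05) was 1 under the stricter filter, with array weights and with the mean of probe sets, each time Tm7sf2. Of 528 gene values under alternatives, 490 kept direction and side of the threshold, 3 were newly past it and 35 changed sign, and 18 of 33 genes never changed sign. The median difference ran from -0.17 to 0.11 over single arrays left out. Over all probe sets, 525 passed, 957 with array weights, 0 with the replicate block, 0 without both B arrays and 0 to 176 with any 1 array left out (176 without KO A; limma, with 5365 at an unadjusted p under 0.05 under the block and 5274 without both B arrays). The labels do not say whether same-lettered arrays belong together. Deviations of same-lettered arrays correlated at 0.28 (A), -0.17 (B) and 0.01 (C). Those of differently lettered arrays ran from -0.45 (Het C with KO A) to 0.37 (Het C with KO B). These values do not settle it with so few arrays. The block gave 0 calls in the group too (limma, with 4 at an unadjusted p under 0.05). The spread counts stayed within 23 to 28 of 33 genes, and those of KO A below all others within 21 to 25.

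Sign changes were these. Hmgcs1 gave -0.0025 under quantile normalization, and Scd2 gave 0.0027 under median centring. Array weights gave -0.013 for Hmgcs1, -0.013 for Insig1, 0.037 for Scd2, 0.024 for Elovl6 and -0.0095 for Fads1. The mean of probe sets gave -0.030 for Hmgcs1, -0.00016 for Fdft1, 0.024 for Acly and 0.074 for Scd2. Without both B arrays the values were -0.18 for Hmgcs1, -0.0899 for Fdft1, -0.21 for Insig1, -0.15 for Fasn, 0.013 for Scd2 and -0.20 for Fads1. With single arrays left out, ranges crossed 0 for Sqle (-0.57 to 0.61), Hsd17b7 (-0.86 to 0.20), Cyp51 (-0.52 to 0.14), Srebf2 (-0.52 to 0.11), Nsdhl (-0.20 to 0.10), Pmvk (-0.26 to 0.0215), Scd1 (-0.28 to 1.14), Scd2 (-0.17 to 0.21), Elovl6 (-0.21 to 0.18), Fads1 (-0.12 to 0.33), Fasn (-0.19 to 0.31), Fdft1 (-0.0668 to 0.34), Hmgcs1 (-0.16 to 0.23) and Insig1 (-0.15 to 0.25). The cause was not tested.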
